A study of Mus musculus with 15 samples.

Results

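The genes described here encode the proteins of the mitochondrial ribosome and were chosen by name: every gene symbol formed of Mrpl or Mrps and a number, with an optional letter a to c, was a member. Of the 24982 symbols in the count tables, 78 were members. All 78 passed the filter on low counts, which kept 15696 symbols, and a member had between 138 and 3380 counts in a library. Polyadenylated RNA was sequenced while E14TG2 cells, a line of mouse embryonic stem cells (ESCs), were converted over 4 days towards epiblast-like cells (EpiLCs). The 15 libraries formed 5 groups of 3: ESCs at day 0, then the Atg7 KO and the control cells of day 2, then the Atg7 KO and the control cells of day 4. ESCs carried the genotype label Control and were kept on inactivated mouse embryonic fibroblasts with serum replacement, LIF and the kinase inhibitors PD0325901 and CHIR99021. For the conversion, cells were moved to fibronectin in N2B27 medium with activin A, bFGF and serum replacement, and knockout and control cells had the same treatment. Atg7 encodes the E1-like enzyme that drives the conjugation steps of autophagosome formation. How the knockout was made, and whether it is a single clone, is not given in the labels, nor is it stated that replicates came from separate cultures, so p-values measure only the spread between these libraries, which may be technical.

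The mitochondrial ribosome translates the few messenger RNAs that mitochondrial DNA encodes, all of them for subunits of the respiratory chain and ATP synthase. Its ribosomal RNAs come from mitochondrial DNA, but every one of its proteins is encoded in the nucleus, made in the cytosol and imported. Some of its proteins have counterparts in the bacterial ribosome and others were acquired in mitochondria. Naive pluripotent cells use both respiration and glycolysis, and cells moving towards the implantation-stage epiblast are known to lean on glycolysis. Of the 78 members, 51 encode proteins of the large subunit and 26 proteins of the small subunit. Mrps30 and Mrps18a carry small-subunit names but encode large-subunit proteins, and Mrps36 encodes a protein of the 2-oxoglutarate dehydrogenase complex, so it is a member by name only.

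Short stretches upstream of the start show what several of these genes hold at their promoters. They are the 150 bases before the RefSeq start on GRCm38.p6, written 5′ to 3′ on the gene's strand. They were taken from members described below. Mrps26, Mrpl3 and Mrps30 were lower in Atg7 KO cells at day 2 and higher at day 4. Mrps25 was lower at both days, and Mrpl58 was higher at day 2. Capitals mark matches, on either strand, to the letters of nuclear respiratory factor 1 (NRF1; GCGC and TGCGC with any base between them), CCGGAAG for the ETS family and CCAAT. A match is a description of letters and was not tested as a binding site. Mrpl16, also lower at day 2 and higher at day 4, had no match in its stretch, which is not printed. Mrpl12 was chosen because its stretch holds the NRF1 letters, among members lower in control cells at day 4 than in ESCs. Mrpl57, chosen in the same way, is not printed. Every printed stretch thus holds a match, and these stretches do not show how common a match is.
Mrps26 (chr2:130563607-130563756, plus strand): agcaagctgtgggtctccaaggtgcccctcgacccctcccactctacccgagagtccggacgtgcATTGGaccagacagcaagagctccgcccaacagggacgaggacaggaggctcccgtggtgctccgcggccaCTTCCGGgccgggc
Mrpl3 (chr9:105053118-105053267, plus strand): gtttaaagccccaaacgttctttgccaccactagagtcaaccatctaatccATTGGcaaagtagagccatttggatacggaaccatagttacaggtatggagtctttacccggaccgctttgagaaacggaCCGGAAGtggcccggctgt
Mrps30 (chr13:118387253-118387402, minus strand): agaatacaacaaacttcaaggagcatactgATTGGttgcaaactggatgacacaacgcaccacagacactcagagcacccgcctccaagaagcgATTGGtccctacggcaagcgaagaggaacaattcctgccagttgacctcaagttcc
Mrps25 (chr6:92184024-92184173, minus strand): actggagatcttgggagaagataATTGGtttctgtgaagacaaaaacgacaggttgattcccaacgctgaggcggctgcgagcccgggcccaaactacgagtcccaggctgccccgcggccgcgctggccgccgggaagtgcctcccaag
Mrpl58 (chr11:115403602-115403751, plus strand): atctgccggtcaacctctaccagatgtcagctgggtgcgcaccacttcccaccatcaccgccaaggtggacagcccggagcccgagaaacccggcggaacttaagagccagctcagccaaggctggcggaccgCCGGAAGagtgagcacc
Mrpl12 (chr11:120484487-120484636, plus strand): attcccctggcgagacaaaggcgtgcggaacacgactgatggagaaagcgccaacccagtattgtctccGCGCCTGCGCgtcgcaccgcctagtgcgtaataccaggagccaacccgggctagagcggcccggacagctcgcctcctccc

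RefSeq promoter windows of 300 bases, 250 before and 50 after the start, were found for 69 members, 75 windows in all. The ETS letters were in 34.7% of the members' windows, against 15.4% of the 15359 windows found for 12143 of the tested genes. A gene with several starts counts once per window. The NRF1 letters were in 17.3% of the members' windows against 8.67%, and the letters ATGGCGGC of the YY1 motif in 16% against 4.08%. CCAAT (40% against 38%), the E-box CACGTG (9.33% against 9.56%), the cAMP response element TGACGTCA (2.67% against 2.79%) and the letters GGGCGGG bound by SP factors (42.7% against 44.0%) were about as frequent in the members' windows as in those of tested genes. NRF1, ETS factors and YY1 are known regulators of nuclear genes for mitochondrial proteins. Another protein-coding gene started on the opposite strand within 1000 bases of the start of 23 members (29.5%), against 10.7% of all 14666 tested protein-coding genes. Such pairs share a promoter region: Mrps34 starts 29 bases from Eme2, Mrps18b 45 bases from Ppp1r10 and Mrpl54 26 bases from Apba3.

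Depth lay between 14059237 and 23371546 counts per library. Atg7 was at 7.16 ± 0.349 CPM (counts set to a common library size with TMM factors; SD, n = 3 in every group) in Atg7 KO cells and 13.6 ± 1.27 CPM in control cells at day 2, and at 11.9 ± 1.28 CPM in Atg7 KO cells and 19.5 ± 0.379 CPM in control cells at day 4, so transcript remained in the knockout. The labelled states were checked against markers. Of 7 pluripotency markers 6 were lower in control cells at day 4 than in ESCs and of 5 EpiLC markers 4 were higher, but Fgf5, a defining EpiLC marker, was at 2.00 CPM in its highest library, and Zfp42, a marker of the naive state, was at 287 to 310 CPM in control cells at day 4 and 126 to 135 CPM in ESCs. All 4 endoderm markers were higher in control cells at day 4 than in ESCs, with summed levels of 121 to 131 CPM and 6.58 to 15.0 CPM. The 8 fibroblast markers summed to 201 to 1626 CPM in ESCs, 407 to 743 CPM in Atg7 KO cells and 218 to 251 CPM in control cells at day 2, and 95.1 to 132 CPM in Atg7 KO cells and 61.5 to 67.6 CPM in control cells at day 4, and no fibroblast marker was at 0 in any group. Not every marker followed these sums: Thy1 was at 5.19 ± 3.43 CPM in ESCs and 15.7 ± 2.07 CPM in control cells at day 4. Of the 8 markers, 5 were higher and 0 lower in Atg7 KO than in control cells at day 2. At day 4, 1 was higher and 0 lower, and 3 had a log2 fold change below 0. The part of fibroblast RNA in the comparisons below was not tested. ESC replicate 3 stood apart: its counts differed from those of ESC replicates 1 and 2 with a chi-square per degree of freedom of 31.8 and 24.2, against 5.86 between those libraries and 3.2 to 7.0 within the other groups. It had the lowest fibroblast sum of the ESC libraries, 201 CPM, and the counts of members called against ESCs are also given without it. Hprt, whose loss defines the related line E14TG2a, was at 195 ± 11.2 CPM in ESCs and near 2 CPM in every later group. It was at 1.77 ± 0.101 CPM in Atg7 KO and 2.34 ± 0.152 CPM in control cells at day 2. At day 4 it was at 2.38 ± 0.484 CPM in Atg7 KO and 1.84 ± 0.259 CPM in control cells. Every comparison with ESCs carries this split. Whether ESCs and later cells are of one subline was not tested, and a difference between days is a difference between these groups. In bulk RNA, fewer cells of a type and less RNA per cell cannot be told apart.

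Mitochondrial ribosomal protein transcripts were lower in control cells at day 4 than in ESCs. Summed over the 78 members, the level was 3074, 3180 and 3342 CPM in control cells at day 4, against 4790, 4743 and 4319 CPM in ESCs. Control cells at day 2 stood between them, at 3756, 3844 and 3720 CPM. The groups did not overlap at any step, and the fall was larger between ESCs and day 2 than between day 2 and day 4 in these sums. Both subunits took part: the large-subunit sum was 2186 ± 107 CPM in control cells at day 4 and 3115 ± 176 CPM in ESCs, and the small-subunit sum 997 ± 27.9 CPM and 1475 ± 86.3 CPM. The ratio of the small to the large sum was 0.474 ± 0.00267 in ESCs, 0.496 ± 0.00385 in control cells at day 2 and 0.456 ± 0.00956 in control cells at day 4, so small-subunit transcripts made up their largest part at day 2 and their smallest at day 4.

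**Figure D1:**
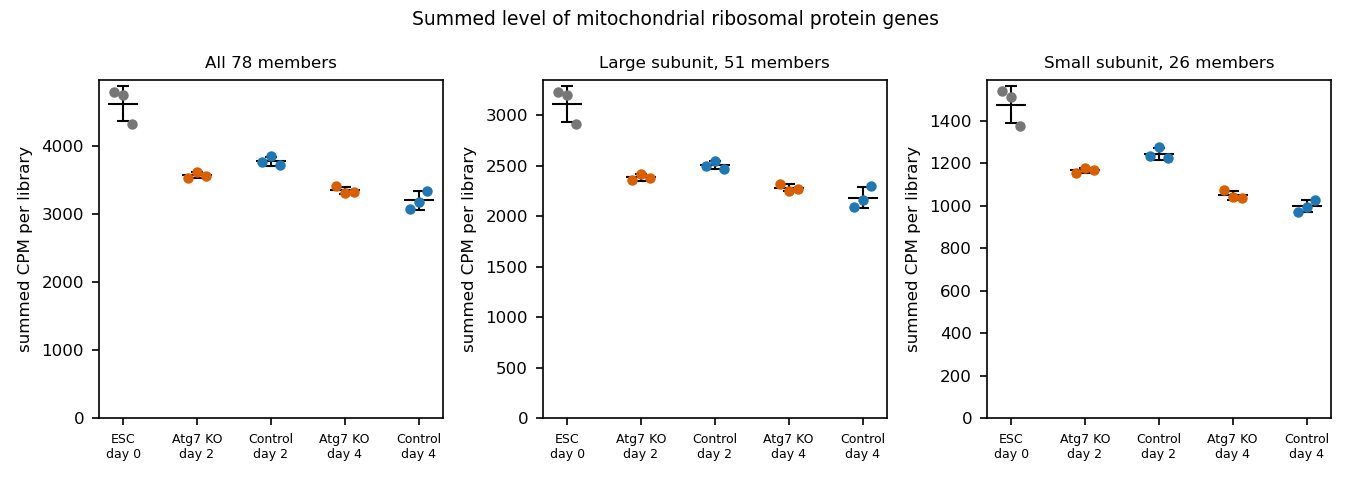
Summed CPM per library of all 78 members (left), the large-subunit members (middle) and the small-subunit members (right), for ESCs, Atg7 KO and control cells at day 2 and Atg7 KO and control cells at day 4; points are libraries, bars the mean ± SD of 3. All 3 ESC libraries lie above every later library, and Atg7 KO lies below control at day 2 (3571 ± 45.6 and 3773 ± 64.2 CPM over all members).

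Member by member, 64 of 78 were lower and 5 higher in control cells at day 4 than in ESCs (adjusted p under 0.05; quasi-likelihood test of edgeR, Benjamini-Hochberg adjusted across all tested genes), and the call rule marked 35.6% of all tested genes as lower and 36.2% as higher. The members' median log2 fold change was -0.61, against 0.02 over all tested genes. A fall of at least 2-fold was called for 14 members, against 11.9% of all tested genes, and a rise of that size for 0 members, against 19%. Large- and small-subunit members had like medians, -0.60 with 42 of 51 lower and -0.62 with 21 of 26 lower. Among small-subunit members, 15 of the 16 with a bacterial counterpart were lower and 0 higher (median -0.90), while of the 10 mitochondria-specific members 6 were lower and 1 higher (median -0.46). The large subunit showed 25 of 30 lower with a bacterial counterpart (median -0.54) and 17 of 21 lower among mitochondria-specific members (median -0.64). Without ESC replicate 3, 66 members were lower and 3 higher, with a median of -0.61. The subgroup medians are descriptions, and their difference was not tested.

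**Figure D2:**
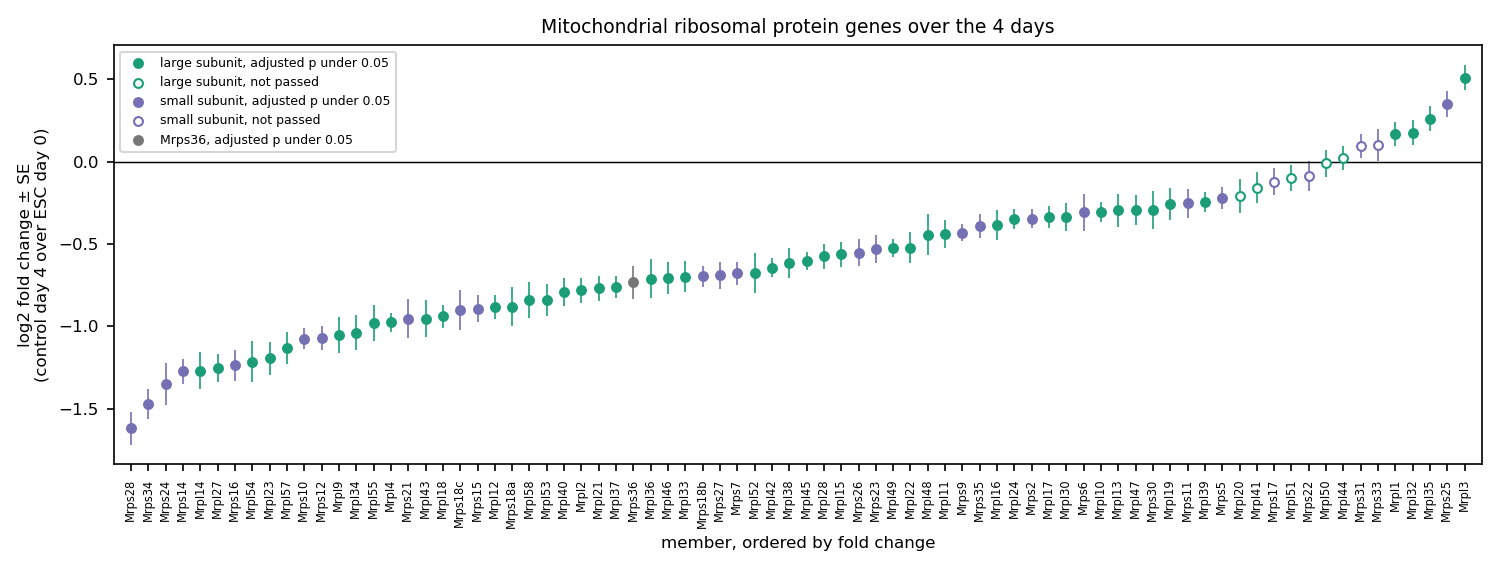
Log2 fold change of each of the 78 members, control cells at day 4 over ESCs at day 0, with its standard error from edgeR; members run along the x axis from the lowest to the highest value, colour gives the subunit and filled points passed the test. The values run from -1.62 for Mrps28 to 0.51 for Mrpl3, with 64 filled points below 0 and 5 above.

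Mrps28, a small-subunit protein at the position of bacterial S1, had the largest fall of any member. Its levels were 13, 13.2 and 13.9 CPM in control cells at day 4, against 41.9, 41.6 and 39.9 CPM in ESCs. The groups lay far apart, with a log2 fold change of -1.62 ± 0.10 (SE; adjusted p = 4.5e-10), and 24.9 ± 1.59 CPM in Atg7 KO and 25.2 ± 1.34 CPM in control cells at day 2 stood between them. Mrps14, also of the small subunit, was at 19.1, 22.2 and 21.8 CPM in control cells at day 4 and 53.6, 50.9 and 48.1 CPM in ESCs. No library of either group overlapped, and the log2 fold change was -1.27 ± 0.07 (adjusted p = 1.79e-10). Mrpl4, which binds ribosomal RNA in the large subunit, was at 50.01, 53.6 and 53.0 CPM in control cells at day 4 and 109, 102 and 97.0 CPM in ESCs, a log2 fold change of -0.98 ± 0.06 (adjusted p = 3.71e-10). All its day 4 control libraries lay well under the ESC libraries.

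Mrps12 and Mrpl12, both of well-known role, were lower too. Mrps12, which sits at the decoding centre, was at 30.2, 29.2 and 32.5 CPM in control cells at day 4 and 70.0, 64.2 and 59.1 CPM in ESCs (log2 fold change -1.07 ± 0.07, adjusted p = 1.06e-09). Mrpl12, the stalk protein that recruits translation factors and also binds the mitochondrial RNA polymerase, was at 62.1, 56.4 and 63.3 CPM in control cells at day 4 and 122, 113 and 99.9 CPM in ESCs (-0.88 ± 0.07, adjusted p = 1.28e-08). Neither gene's groups overlapped. The other stalk members fell less, with log2 fold changes of -0.31 for Mrpl10 and -0.44 for Mrpl11. Mrpl45, which lies near the tunnel exit and ties the ribosome to the inner membrane, fell by 0.60 on the log2 scale. The paralogs Mrps18a, Mrps18b and Mrps18c, of which Mrps18a joins the large subunit, moved alike, with log2 fold changes of -0.88, -0.69 and -0.90. Mrps36, the member that is no ribosomal protein, had a log2 fold change of -0.73 ± 0.10, within the range of the subunit genes.

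The exceptions were 5 members that were higher in control cells at day 4 than in ESCs: Mrpl3, Mrps25, Mrpl35, Mrpl1 and Mrpl32. Mrpl3, a core protein of the large subunit, was at 72.5, 72.4 and 75.5 CPM in control cells at day 4 and 60.1, 48.2 and 46.3 CPM in ESCs. It was the largest rise among the members, with no overlap (log2 fold change 0.51 ± 0.08, adjusted p = 2.14e-05). Mrps25, a mitochondria-specific protein of the small subunit, was at 56.1, 54.6 and 63.2 CPM in control cells at day 4 and 46.7, 46.6 and 43.2 CPM in ESCs (0.35 ± 0.08, adjusted p = 9.38e-04). Its groups did not overlap either. Mrpl35, Mrpl1 and Mrpl32 rose by 0.26, 0.17 and 0.17 on the log2 scale. The count of 5 became 3 without ESC replicate 3 and 3 without day 4 control replicate 1, and in both cases Mrpl1 and Mrpl32 lost the call.

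The timing differed between members. Between ESCs and control cells at day 2, 51 members were lower and 9 higher in the day 2 cells (background 34.9% lower and 35.6% higher), with a median of -0.31. Between control cells at day 2 and day 4, 38 were lower and 13 higher at day 4 (background 34.6% and 33.9%), with a median of -0.20. The 2 steps share the day 2 control libraries. Without ESC replicate 3, 56 members were lower and 6 higher in control cells at day 2 than in ESCs, with a median of -0.36. The count of 9 that were higher at day 2 became 5 without day 2 control replicate 1 and 4 without day 2 control replicate 2.

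Mrpl58 was lowest and Mrps30 highest at day 2. Mrpl58, a codon-independent release factor that rescues stalled ribosomes and is built into the large subunit, was at 41.5, 40.0 and 31.0 CPM in ESCs, 15.2, 15.5 and 15.9 CPM in control cells at day 2 and 19.2, 19.5 and 24.0 CPM in control cells at day 4. It had the largest fall of any member over the first step (log2 fold change -1.27 ± 0.11, adjusted p = 3.81e-08), and was higher at day 4 than at day 2 (0.43 ± 0.11, adjusted p = 3.18e-03). Mrpl20 and Mrpl51, both of the large subunit, had the same shape: over the second step Mrpl20 rose by 0.69 and Mrpl51 by 0.58 on the log2 scale. Mrps30, a large-subunit protein first described as a factor in apoptosis, was at 58.9, 48.1 and 47.9 CPM in ESCs, 90.2, 69.3 and 84.1 CPM in control cells at day 2 and 37.4, 43.2 and 45.8 CPM in control cells at day 4. It peaked at day 2, with no library overlapping those of either other day (log2 fold changes 0.65 ± 0.11, adjusted p = 8.29e-05, and -0.95 ± 0.12, adjusted p = 1.83e-06). Mrps10, of the small-subunit head, barely moved by day 2 (0.12 ± 0.06, adjusted p = 0.0968) and then had the log2 fold change of -1.19 ± 0.06 (adjusted p = 1.65e-10) between day 2 and day 4.

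Loss of Atg7 was set against control cells of the same day. At day 2, 16 members were lower and 2 higher in Atg7 KO cells, where the call marked 21.4% of all tested genes as lower and 20.4% as higher, so the members' share of lower calls, 20.5%, was near the background and their share of higher calls, 2.56%, was under it. The median log2 fold change was -0.06 over the members and -0.01 over all tested genes, and 55 members had a value below 0. No member was called with a change of at least 2-fold (background 3.62% higher and 4.54% lower). Every knockout library lay below every control for 25 members and above for 6, against 31.7% and 29.6% of all tested genes. The summed level was 3529, 3619 and 3565 CPM in Atg7 KO cells and 3756, 3844 and 3720 CPM in control cells, and the libraries did not overlap. The count of 16 became 9 without day 2 control replicate 2, 10 without Atg7 KO replicate 1 and 10 without Atg7 KO replicate 3. Without Atg7 KO replicate 2, the library with the most fibroblast transcripts at day 2, and ESC replicate 3, 18 members were lower and 3 higher. Calls over all tested genes rose there too, to 3872 lower and 3695 higher of 15992.

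Mrpl33, a small rRNA-binding protein of the large subunit, had the largest fall at day 2. It was at 22.9, 30.1 and 26.6 CPM in Atg7 KO cells and 36.2, 42.3 and 37.0 CPM in control cells. The groups did not overlap (log2 fold change -0.53 ± 0.09, adjusted p = 2.9e-04), and at day 4 the value was -0.19 ± 0.10, which did not pass (adjusted p = 0.135). Mrps12 was at 44.3, 43.7 and 41.4 CPM in Atg7 KO cells and 51.6, 55 and 53.7 CPM in control cells, all knockout libraries below all controls (-0.31 ± 0.07, adjusted p = 2.05e-03). Mrpl20, a large-subunit protein that binds rRNA, was at 18.5, 20.8 and 20.4 CPM in Atg7 KO cells and 28.7, 27.2 and 26.6 CPM in control cells (-0.47 ± 0.11, adjusted p = 2.66e-03), again with no overlap. Mrps36 was also lower (-0.28 ± 0.10, adjusted p = 0.0305), a call that was lost in 5 of 6 refits that left out a library.

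Mrpl58 went the other way at day 2. It was at 21.8, 20.8 and 21.7 CPM in Atg7 KO cells and 15.2, 15.5 and 15.9 CPM in control cells. The libraries of each group lay close together and the groups apart, and the call (log2 fold change 0.46 ± 0.11, adjusted p = 3.56e-03) held in every refit that left out a library. At day 4 it was at 27.6, 24.4 and 24.8 CPM in Atg7 KO cells and 19.2, 19.5 and 24.0 CPM in control cells, again without overlap but short of the call (0.29 ± 0.11, adjusted p = 0.0504). Mrpl51, at the tunnel exit of the large subunit, was the other member higher at day 2 (0.23 ± 0.08, adjusted p = 0.0215). Its call was lost without day 2 control replicate 1, Atg7 KO replicate 2 or Atg7 KO replicate 3, with log2 fold changes of 0.20 to 0.22.

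At day 4 the direction of most calls was the opposite. In Atg7 KO cells 19 members were higher and 8 lower than in control cells, against 19.5% higher and 18.1% lower among all tested genes, and the members' shares were 24.4% and 10.3%. The median log2 fold change was 0.08 over the members and -0.01 over all tested genes. No call reached 2-fold (background 1.39% higher and 5.25% lower). The groups lay apart with the knockout above for 29 members and below for 13, against 27.6% and 27.2% of all tested genes. This balance of calls moved with the scaling, among the members and among all tested genes. Under upper quartile factors 17 members were higher and 10 lower, against 2648 and 3308 of 15696 tested genes. The medians were 0.04 for the members and -0.05 for all tested genes. Where only genes with at least 10 CPM in 3 libraries were kept before scaling, 14 members were higher and 12 lower (median 0.02). Of the 10577 genes tested there, 2306 were higher and 2611 lower (median -0.02). The summed level was 3409, 3310 and 3327 CPM in Atg7 KO cells and 3074, 3180 and 3342 CPM in control cells, and the libraries overlapped. The 7 pluripotency markers, all of them higher in Atg7 KO cells at day 4, summed to 2550 to 2835 CPM in Atg7 KO cells and 1844 to 1883 CPM in control cells, and the part of this difference in cell state in the members' values was not tested. The count of 8 lower became 5 without day 4 control replicate 2 or 3, or without Atg7 KO replicate 1 or 2. With ESC replicate 3 and the day 2 Atg7 KO replicate 2 left out, 25 were higher and 9 lower. Calls over all tested genes rose there too, to 3795 higher and 3666 lower of 15992.

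Mrps34, a mitochondria-specific protein needed for the stability of the small subunit, had the largest rise at day 4. It was at 33.5, 33.5 and 33.3 CPM in Atg7 KO cells and 18, 22.1 and 20.6 CPM in control cells. The groups lay well apart (log2 fold change 0.72 ± 0.09, adjusted p = 2.15e-05). At day 2 it had been at 31.5, 35.3 and 32.0 CPM in Atg7 KO cells and 41.6, 39.5 and 40.8 CPM in control cells, lower in every knockout library (-0.30 ± 0.09, adjusted p = 0.012), a call lost without Atg7 KO replicate 1 (-0.27). In Atg7 KO cells it hardly differed between day 4 and day 2 (0.02 ± 0.09, adjusted p = 0.863), whereas in control cells it was lower at day 4 (-1.01 ± 0.09, adjusted p = 7.43e-08). Mrps34 lies at chr17:24895116-24897502 on the plus strand of GRCm38, and 1309 of its 2064 exonic bases overlap exons of Mapk8ip3 on the opposite strand. Since strandedness of the counts is not given, its reads cannot be told apart from those of Mapk8ip3 there. Mapk8ip3 itself was at 92.9 CPM in Atg7 KO and 99.4 CPM in control cells at day 4, a log2 fold change of -0.10 that did not pass (adjusted p = 0.297).

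Mrps30 (chr13:118378381-118387252, minus strand), whose promoter stretch above holds the CCAAT letters at 2 places, took the same path. At day 4 it was at 62.1, 70.3 and 59.9 CPM in Atg7 KO cells and 37.4, 43.2 and 45.8 CPM in control cells, with no overlap (log2 fold change 0.61 ± 0.12, adjusted p = 6.65e-04). At day 2 it was at 60.3, 55.2 and 68.6 CPM in Atg7 KO cells and 90.2, 69.3 and 84.1 CPM in control cells. The day 2 groups came within 1 CPM of each other (-0.40 ± 0.11, adjusted p = 8.66e-03), and the call was lost without day 2 control replicate 1 (-0.32). Its peak in control cells at day 2 was thus lower in Atg7 KO cells, and its level in Atg7 KO cells was about the same at day 4 as at day 2 (0.06 ± 0.11, adjusted p = 0.641).

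Among the other members that were higher at day 4, Mrpl37 of the large subunit was at 64.8, 73.7 and 64.0 CPM in Atg7 KO cells and 52.5, 51.7 and 52.8 CPM in control cells. No library overlapped (log2 fold change 0.37 ± 0.07, adjusted p = 3.53e-04), and the day 2 value of -0.12 did not pass (adjusted p = 0.154). Mrps18b, the small-subunit paralog without a bacterial partner, was at 58.6, 65 and 56.1 CPM in Atg7 KO cells and 44.8, 48.2 and 46.1 CPM in control cells (0.37 ± 0.06, adjusted p = 2.77e-04). Its paralogs Mrps18a (0.18 ± 0.12) and Mrps18c (0.08 ± 0.12) did not pass (adjusted p = 0.281 and 0.66), and the difference between paralogs was not tested. Mrps35 of the small subunit was at 50.3, 44.7 and 44.7 CPM in Atg7 KO cells and 35.6, 38.7 and 34.4 CPM in control cells (0.36 ± 0.07, adjusted p = 8.07e-04). Mrpl53, a mitochondria-specific protein of the large subunit, was at 23.1, 20.6 and 22.9 CPM in Atg7 KO cells and 15.6, 14 and 17.8 CPM in control cells (0.49 ± 0.10, adjusted p = 9.9e-04). Each of these 4 genes had every knockout library above every control, and their calls held in every refit that left out a library.

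Of the 8 members that were lower at day 4, Mrps25 was the only member lower in Atg7 KO cells at both days. It was at 45.5, 39.3 and 46.0 CPM in Atg7 KO cells and 56.1, 54.6 and 63.2 CPM in control cells at day 4 (log2 fold change -0.41 ± 0.08, adjusted p = 7.61e-04), and at 37.5, 39.4 and 37.0 CPM in Atg7 KO cells and 44.8, 52.1 and 48.1 CPM in control cells at day 2 (-0.35 ± 0.08, adjusted p = 2.4e-03). The groups overlapped at neither day. Of its 6576 exonic bases, 4590 overlap Nr2c2 on the opposite strand, so these reads are uncertain too. Nr2c2 went the opposite way, with 48.0 CPM in Atg7 KO and 35.4 CPM in control cells at day 4 and 23.1 CPM in Atg7 KO and 18.1 CPM in control cells at day 2 (adjusted p = 2.55e-03 and 0.013). Mrps33, a small protein of the small subunit, was at 24.9, 22.6 and 26.6 CPM in Atg7 KO cells and 32.3, 32.5 and 34.0 CPM in control cells at day 4, without overlap (-0.42 ± 0.10, adjusted p = 2.96e-03). Mrpl14, Mrpl42, Mrpl32, Mrpl35, Mrpl49 and Mrpl45, all of the large subunit, had log2 fold changes between -0.39 and -0.19, and the calls of Mrpl14, Mrpl32, Mrpl35 and Mrpl45 were each lost in 2 or more refits that left out a library.

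**Figure D3:**
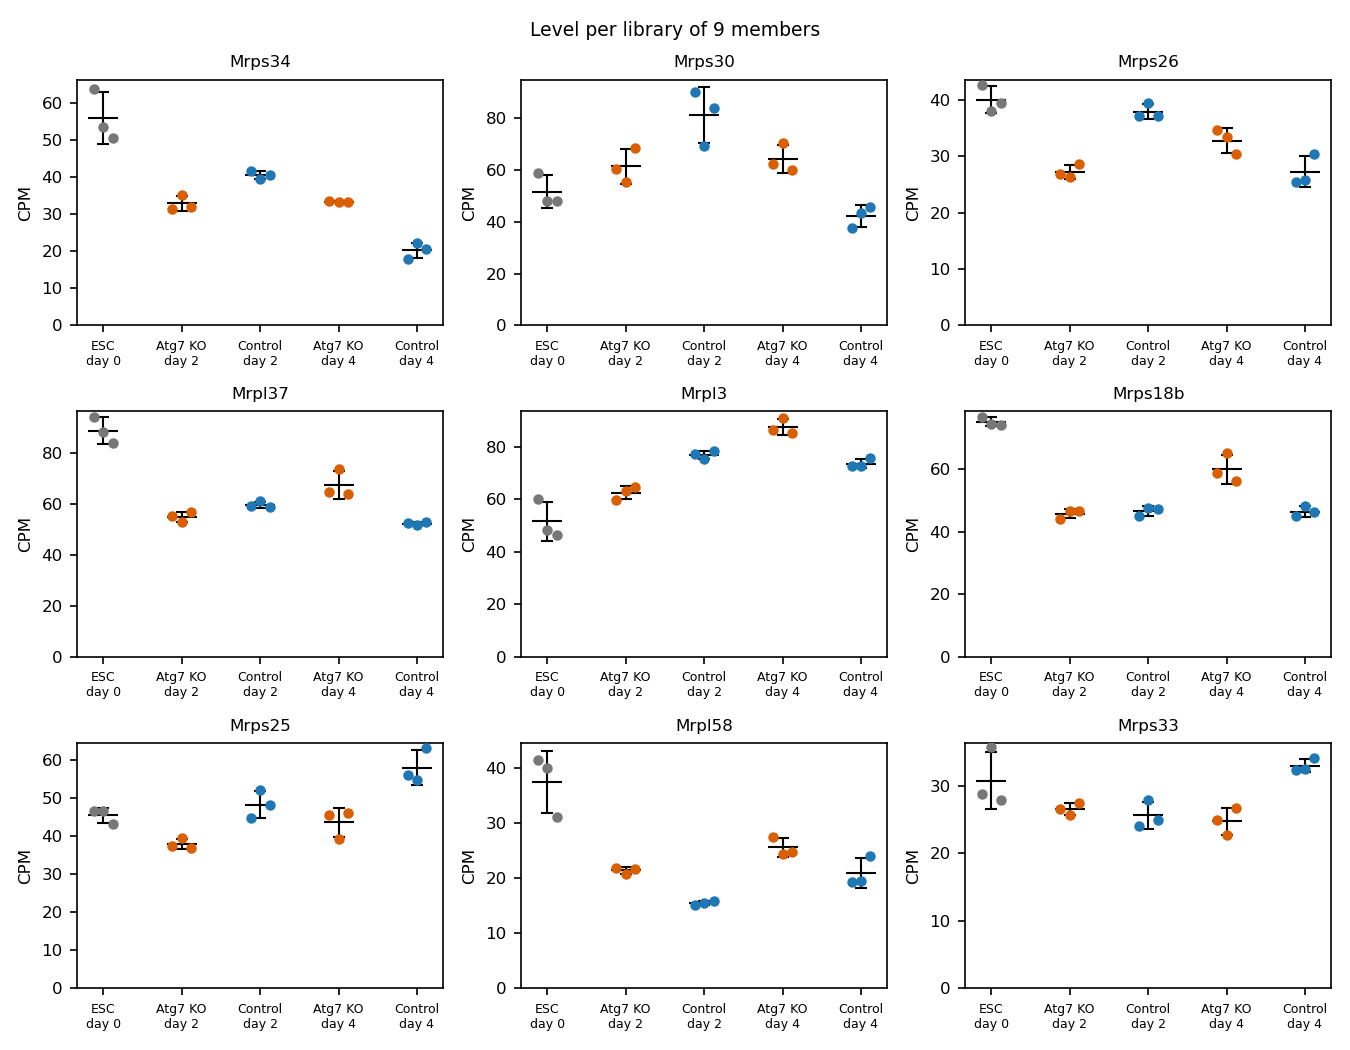
CPM per library of 9 members in ESCs, Atg7 KO and control cells at day 2 and Atg7 KO and control cells at day 4; points are libraries and bars the mean ± SD of 3. Mrps34 is at 33.4 ± 0.134 CPM in Atg7 KO and 20.3 ± 2.08 CPM in control cells at day 4, Mrps25 is lower in Atg7 KO cells at both days, and Mrpl58 is lowest in control cells at day 2.

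The change of the Atg7 effect between the days was tested directly as the knockout effect at day 4 minus that at day 2. It was called above 0 for 19 members and below 0 for 4, against calls for 18.6% and 17.6% of all tested genes. By sign alone, called or not, it was above 0 for 57 members and below 0 for 21, against 7730 and 7965 of 15696 tested genes. The median was 0.15 over the members and -0.01 over all tested genes. A change of at least 2-fold upwards was called for 2 members, Mrps34 and Mrps30 (background 3.39%), and downwards for 0 (background 5.64%). With only genes of at least 10 CPM in 3 libraries kept, the change was called above 0 for 14 members and below 0 for 9, with a median of 0.08. Under upper quartile factors it was called above 0 for 16 and below 0 for 6. Of the 10577 genes tested in the first setting, 2153 were called above 0 and 2652 below. Under upper quartile factors these calls were 2527 and 3095 of 15696 tested genes. The count of members called below 0 became 2 without day 2 control replicate 2, day 2 Atg7 KO replicate 2 or day 4 Atg7 KO replicate 2. It became 1 without day 2 Atg7 KO replicate 3, day 4 control replicate 2 or day 4 control replicate 3. Mrps34 had the largest change, 1.02 ± 0.13 on the log2 scale (adjusted p = 2.12e-05), followed by Mrps30 at 1.01 ± 0.16 (adjusted p = 1.68e-04), Mrps26 at 0.74 ± 0.12 (adjusted p = 1.56e-04), Mrpl16 at 0.68 ± 0.13 (adjusted p = 7.25e-04), Mrpl34 at 0.58 ± 0.15 (adjusted p = 5.35e-03) and Mrpl3 at 0.55 ± 0.11 (adjusted p = 9.51e-04). The calls of these 6 held in every refit that left out a library. The 4 called below 0 were Mrpl14, Mrps33, Mrpl51 and Mrps31, of which Mrps33 alone kept its call in every such refit.

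For 6 members both days passed with opposite signs, lower in Atg7 KO cells at day 2 and higher at day 4: Mrps34, Mrps30, Mrps26, Mrpl16, Mrpl3 and Mrpl4. Of all tested genes 4.11% had this pair of calls. Mrps26, a mitochondria-specific protein of the small subunit, was at 26.8, 26.3 and 28.7 CPM in Atg7 KO cells and 37.2, 39.4 and 37.1 CPM in control cells at day 2 (log2 fold change -0.48 ± 0.08, adjusted p = 2.5e-04), and at 34.7, 33.4 and 30.3 CPM in Atg7 KO cells and 25.5, 25.9 and 30.5 CPM in control cells at day 4 (0.27 ± 0.08, adjusted p = 0.0204). Its groups were apart at day 2 and overlapped at day 4, where the call was lost in 4 of 6 refits that left out a library. Mrpl3 was at 59.6, 63.1 and 64.6 CPM in Atg7 KO cells and 77.2, 75.1 and 78.3 CPM in control cells at day 2 (-0.30 ± 0.08, adjusted p = 5.21e-03), and at 86.4, 91.0 and 85.2 CPM in Atg7 KO cells and 72.5, 72.4 and 75.5 CPM in control cells at day 4 (0.25 ± 0.08, adjusted p = 0.0165). The groups overlapped at neither day, and the day 4 call was lost without day 4 Atg7 KO replicate 2 (0.22). Mrpl16, which lies near the site of peptide bond formation, was at 23.4, 24.5 and 21.3 CPM in Atg7 KO cells and 30.1, 30.1 and 30.3 CPM in control cells at day 2 (-0.39 ± 0.09, adjusted p = 2.96e-03), and at 37.1, 30.0 and 33.8 CPM in Atg7 KO cells and 27.5, 25.7 and 29.0 CPM in control cells at day 4 (0.29 ± 0.09, adjusted p = 0.0191). Again neither day overlapped, and the day 4 call was lost without day 4 control replicate 2 or Atg7 KO replicate 1. Mrpl4 had the smallest values of the 6, -0.15 at day 2 and 0.20 at day 4, and lost its call in 5 of 6 such refits at day 2 and 2 of 6 at day 4.

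**Figure D4:**
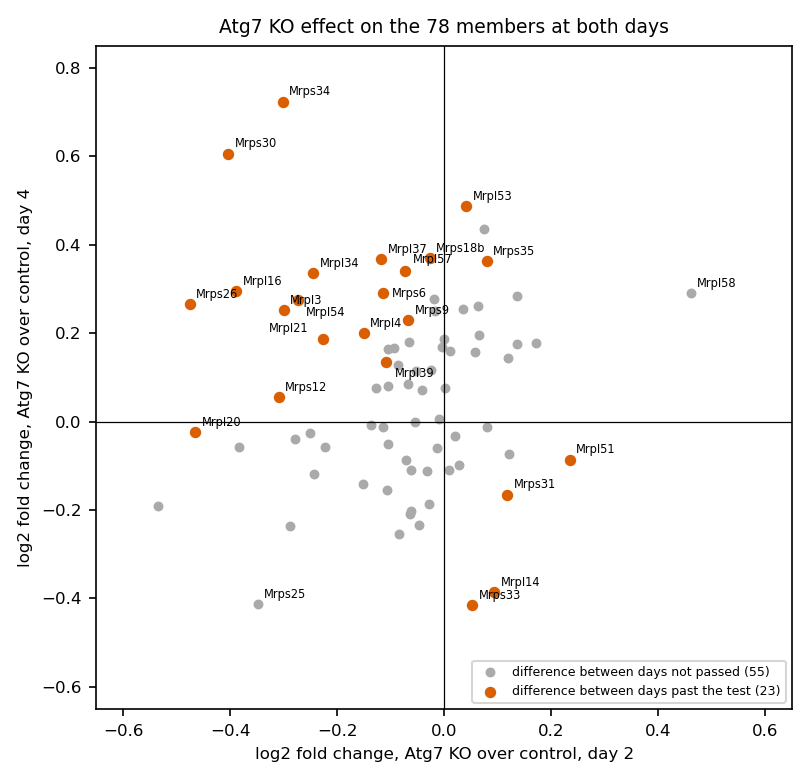
Log2 fold change of Atg7 KO over control cells at day 2 (x axis) and at day 4 (y axis) for the 78 members; orange points are the 23 whose effect changed between the days (adjusted p under 0.05). The upper left part of the plot holds 31 members, with Mrps34 at -0.30 and 0.72 farthest up, and the lower right part 9.

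Set side by side, the effects at both days showed little in common across the members: 38 of 78 (48.7%) had the same sign at both days, against 54.3% of all tested genes, and Pearson's r over the members was 0.01, against 0.29 over all tested genes. Genes are not independent replicates, the 2 comparisons share no library, and every value rests on 3 libraries a group. Of the 18 members called at day 2, 7 were called at day 4 (38.9% of the day 2 calls and 25.9% of the 27 day 4 calls). Over all tested genes, 43.4% of the day 2 calls were called at day 4 and 48.2% of the day 4 calls at day 2.

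Within Atg7 KO cells, 27 members were lower and 19 higher at day 4 than at day 2, against 32% and 31.2% of all tested genes, with a median of -0.11. Mrpl20 rose most, at 48.7, 39.7 and 42.3 CPM at day 4 and 18.5, 20.8 and 20.4 CPM at day 2 in Atg7 KO cells (log2 fold change 1.13 ± 0.11, adjusted p = 1.61e-07). Its libraries lay far apart between the days. Mrpl17, near the tunnel exit, was at 95.7, 93.2 and 94.8 CPM at day 4 and 59.9, 58.3 and 60.2 CPM at day 2 in Atg7 KO cells (0.67 ± 0.07, adjusted p = 2.48e-07). Mrps24, a small-subunit protein at the entry of messenger RNA, fell to 27.6, 25.9 and 22.8 CPM at day 4, against 50.1, 54.2 and 54.2 CPM at day 2 in Atg7 KO cells (-1.06 ± 0.13, adjusted p = 2.4e-06). Mrps10 fell by 0.97 on the log2 scale in Atg7 KO cells and by 1.19 in control cells over the same step, and the difference of 0.22 ± 0.09 did not pass (adjusted p = 0.0643).

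Compared with 2 other sets chosen by symbol, the members had a like course over time. Their balance of Atg7 calls was unlike that of the cytosolic ribosomal protein genes. Of 75 tested cytosolic ribosomal protein genes 64 were lower and 1 higher in control cells at day 4 than in ESCs (median -0.49). Of 35 tested Nduf genes, named as subunits of respiratory complex I, 32 were lower and 1 higher (median -0.76). The background was 35.6% lower and 36.2% higher. In Atg7 KO cells at day 2, 2 mitochondrial members were higher and 16 lower, where 27 cytosolic ribosomal protein genes were higher and 2 lower (36% and 2.67%, median 0.11). At day 4, 19 mitochondrial members were higher and 8 lower, where 3 cytosolic genes were higher and 11 lower (4% and 14.7%, median -0.04). The knockout effect changed upwards between the days for 19 and downwards for 4 mitochondrial members, and for 3 and 22 cytosolic genes (4% and 29.3%, median -0.16). The background was 18.6% upwards and 17.6% downwards. Of the Nduf genes, 1 was higher and 6 lower at day 2 (2.86% and 17.1%, background 20.4% and 21.4%). At day 4, 7 were higher and 3 lower (20% and 8.57%, background 19.5% and 18.1%). Their share of lower calls at day 2 and of higher calls at day 4 was thus near the background. These sets are described by counts, and the difference between them was not tested.

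The rest of the mitochondrial translation system was read from lists of genes under other names. Of 5 further ribosome subunits, 3 were lower and 1 higher in control cells at day 4 than in ESCs (background 35.6% and 36.2%). Gadd45gip1, a large-subunit protein also known as CRIF1, was at 23.4, 23.6 and 24.3 CPM in Atg7 KO cells and 12.6, 16.8 and 16.1 CPM in control cells at day 4 (log2 fold change 0.65 ± 0.11, adjusted p = 2.79e-04). In ESCs it was at 62.4, 61.3 and 48.4 CPM, and control cells at day 4 over ESCs had a log2 fold change of -1.92 ± 0.11 (adjusted p = 1.6e-10). These 3 groups did not overlap. Ptcd3 of the small subunit went against the members, at 253, 245 and 233 CPM in control cells at day 4 and 166, 163 and 163 CPM in ESCs (0.57 ± 0.05, adjusted p = 4.35e-08), and was lower in Atg7 KO cells at day 4 (-0.21 ± 0.05, adjusted p = 4.13e-03).

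Of 15 translation factors, 4 were higher and 6 lower in Atg7 KO cells at day 2 (26.7% and 40%). At day 4, 2 were higher and 0 lower (13.3% and 0%). The background for the lists here was 20.4% higher and 21.4% lower at day 2, and 19.5% and 18.1% at day 4. No list was tested against it. Gfm1, the elongation factor that moves the ribosome along, was at 93.4, 92.9 and 95.3 CPM in Atg7 KO cells and 122, 131 and 124 CPM in control cells at day 2 (log2 fold change -0.42 ± 0.05, adjusted p = 4.44e-06). Guf1, a back-translocating elongation factor, was at 53.9, 53.1 and 53.7 CPM in Atg7 KO cells and 80.9, 78.8 and 80.3 CPM in control cells (-0.58 ± 0.06, adjusted p = 4.8e-06), and Taco1, an activator of cytochrome oxidase subunit translation, at 13.2, 10.9 and 13.7 CPM in Atg7 KO cells and 8.25, 5.43 and 7.60 CPM in control cells (0.83 ± 0.15, adjusted p = 3.61e-04). All 3 had groups apart at day 2, and at day 4 none passed. Of 23 tested genes for ribosome assembly and rRNA modification, 6 were higher and 1 lower at day 2 (26.1% and 4.35%). At day 4, 6 were higher and 2 lower (26.1% and 8.70%). Noa1, a GTPase of small-subunit assembly, was the gene lower at day 2 (-0.57). Of 9 genes for mitochondrial transcription and DNA replication, 5 were higher and 0 lower at day 2 (55.6% and 0%). Tefm, a transcription elongation factor, was at 0.78 there. At day 4, 1 was higher and 1 lower (11.1% each), where Polrmt, the mitochondrial RNA polymerase, was at 0.49 and Tfam at -0.21.

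Among 9 tested nuclear regulators of mitochondrial genes, 1 was higher and 1 lower in Atg7 KO cells at day 2 (background 20.4% and 21.4%). At day 4, 4 were higher and 0 lower (background 19.5% and 18.1%). Pprc1, a coactivator of the PGC-1 family, was at 211, 214 and 212 CPM in Atg7 KO cells and 129, 116 and 103 CPM in control cells at day 4 (log2 fold change 0.87 ± 0.08, adjusted p = 1.19e-06). Knockout libraries lay close together and well above the controls, and ESCs were higher still, at 324, 325 and 261 CPM. Ppargc1b, a coactivator of the same family, was at 13.8, 13.1 and 10.6 CPM in Atg7 KO cells and 8.60, 6.76 and 6.59 CPM in control cells (0.77 ± 0.14, adjusted p = 4.03e-04), and Yy1 had a value of 0.36. Mycn, a MYC family factor, was higher in Atg7 KO cells at both days (1.00 ± 0.11 at day 2, adjusted p = 6.72e-06, and 0.56 ± 0.12 at day 4, adjusted p = 1.21e-03). Esrra, a nuclear receptor, was the regulator lower at day 2 (-0.46).

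The members differed from one another in gene structure, and the values moved with it. Per kilobase of exon, averaged over the 5 groups, Mrpl28, Mrpl2 and Mrpl34 had the highest levels, at 64.7, 64.1 and 54.1 CPM per kilobase, and Mrpl48, Mrpl33 and Mrps35 the lowest, at 3.89, 4.53 and 4.84. The exonic length of a gene counts every annotated exon, so genes with long rare exons come out low. Members' exonic length had a median of 2394 bases, against 4204 over all tested genes, and their median GC content was 49.8%, against 49.9%. In control cells at day 4 over ESCs, the members' median log2 fold change was lower than that of all tested genes in each of 4 GC classes, at -0.32, -0.44, -0.76 and -0.89 with rising GC. The median of all tested genes was 0.32 in the class under 45% GC and -0.37 in the class of 55% or more. By exonic length the members' median was -0.92 under 1500 bases, -0.61 from 1500 to 3000 and -0.34 above, and that of all tested genes -0.12, -0.06 and 0.04. For Atg7 KO over control at day 4 the members' medians in the GC classes were 0.03, -0.02, 0.17 and 0.16, and those of all tested genes -0.11, -0.03, 0.04 and 0.10. At day 2 the members' medians were -0.05, -0.11, -0.02 and -0.15, and those of all tested genes 0.07, 0.002, -0.03 and -0.13. For the difference of the knockout effect between days the members had 0.09, 0.09, 0.17 and 0.22, and all tested genes -0.18, -0.05, 0.05 and 0.21. In the class of 55% or more, members and all tested genes thus lay close together in these 2 comparisons. The part of GC content in these results was not tested.

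**Figure D5:**
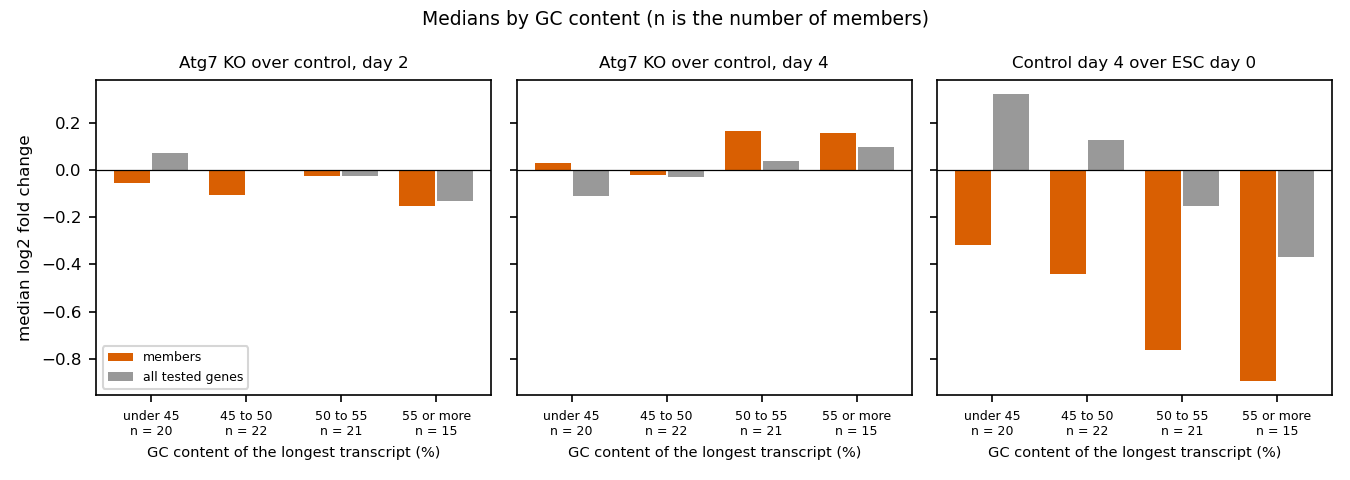
Median log2 fold change of the members (orange) and of all tested genes (grey) in 4 classes of transcript GC content, for Atg7 KO over control at day 2 (left), Atg7 KO over control at day 4 (middle) and control cells at day 4 over ESCs (right); n is the number of members in a class. In the right panel the members lie below all tested genes in each class, and both series fall as GC rises.

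The members lie on 17 chromosomes, with 11 on chromosome 11, 8 on chromosome 17 and 7 on chromosome 6. Chromosome 18 holds 0 members. Its 401 tested genes had median log2 fold changes of 0.56 for Atg7 KO over control at day 2 and 0.01 at day 4. The cause of this shift was not tested. Without chromosome 18 genes, 15 members were lower and 2 higher at day 2, and 8 and 20 at day 4. Of the 15302 genes tested there, 3145 were lower and 3095 higher at day 2, and 2772 and 2982 at day 4. Exons of 24 members overlap exons of another gene in the tables, 19 of them by at least 100 bases, and their counts are uncertain to that extent. On chromosome 6 the median log2 fold change of control cells at day 4 over ESCs was -0.10 for the 7 members and 0.43 for all tested genes. Among promoter windows, the ETS letters were in 8 of 15 windows of members whose Atg7 effect changed upwards between the days and in 18 of 60 windows of the other members, the NRF1 letters in 4 of 15 and 9 of 60, CCAAT in 9 of 15 and 21 of 60, and GGGCGGG in 5 of 15 and 27 of 60. These are counts without a test, and they say nothing of which factor binds.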

How the data were processed

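The authors deposited raw counts per gene symbol for each library. The tools named in the submitters' processing notes are DESeq2, StringTie, featureCounts and STAR, and the builds mm10 and GRCm38; the sources used here give no versions, annotation or strandedness. Counts were tested as deposited in edgeR 4.0.16 (R 4.3.3): filterByExpr (smallest count 10, smallest total 15) kept 15696 of 24982 symbols, TMM factors scaled the libraries, and 1 quasi-likelihood fit over all 15 libraries gave every comparison, with a call at a Benjamini-Hochberg adjusted p under 0.05 and no minimum fold. CPM are TMM-scaled. Exon lengths, GC content, coordinates and overlaps came from GENCODE M21 (GRCm38) and promoter windows from RefSeq (GRCm38.p6). Totals per library ranged from 14059237 to 23371546 counts, and same-group libraries differed beyond sampling noise (chi-square per degree of freedom 3.20 to 31.8), so each was counted as 1 sample. Replicate numbers did not pair the samples. Alternatives were DESeq2 1.42.0, other scalings and filters, a replicate block, fits on the compared groups and on 13 libraries, and leaving out each library. The fit was tested on simulated data in which few genes were changed. It called 47.8% of 1.5-fold changes for Atg7 KO at day 2, 64.9% at day 4 and 55.9% for control day 4 over ESCs. Of 4-fold changes it called 95.5%, 88.9% and 94.0%. The changed genes were drawn from all tested genes, at any level, and far more genes were called in the real data. These rates are therefore not those of the members. A member that did not pass may still differ by a small fold. Members named were, in each comparison, the 6 with the smallest p in each direction among called members whose groups did not overlap, up to 8 called against the main direction, the Mrps18 paralogs, members of known role (Mrpl10, Mrpl11, Mrpl12, Mrps12, Mrpl45, Mrpl58, Mrps36 and Mrps30) and the 3 of highest and 3 of lowest level per exon length; of each other list, up to 3 called genes per direction. Further genes were named after their values were seen. The members and lists were chosen with earlier results of these data known.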

Additional observations from a re-analysis of the deposited data

Results flagged for a closer look

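The effect of Atg7 loss differed between day 4 and day 2 for 23 members, by the test of the difference itself in edgeR (adjusted p under 0.05). The same test called a difference above 0 for 18.6% of all tested genes and below 0 for 17.6%. All values are log2 differences of the knockout effect, day 4 minus day 2. Largest were those of Mrps34 (1.02), Mrps30 (1.01), Mrps26 (0.74), Mrpl16 (0.68) and Mrpl34 (0.58). Mrpl3 and Mrpl54 followed at 0.55 each, Mrpl37 at 0.49, Mrpl53 at 0.45, Mrpl20 at 0.44 and Mrpl21 and Mrpl57 at 0.41. Mrps18b and Mrps6 had a difference of 0.40, Mrps12 of 0.36, Mrpl4 of 0.35, Mrps9 of 0.30, Mrps35 of 0.28 and Mrpl39 of 0.24. Mrpl14 (-0.48), Mrps33 (-0.47), Mrpl51 (-0.32) and Mrps31 (-0.28) had differences below 0. Of the 23 calls, 14 held when each library was left out in turn, 13 above 0 and 1 below, and those of Mrpl14, Mrpl20, Mrpl39, Mrpl51, Mrpl54, Mrpl57, Mrps31, Mrps35 and Mrps6 were lost in at least 1 such fit.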

How the results depend on the processing

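Of the values of named members under alternatives, 1642 kept direction and call and 95 kept direction only. These members were named from the called ones, mostly by smallest p, so most were likely to keep their call. Over all called members, refits that left out a library lost 10 of 18 Atg7 KO calls at day 2 and 12 of 27 at day 4. They also lost 9 of 23 calls for the difference between days and 7 of 69 for control day 4 over ESCs. Under upper quartile scaling the members' median was 0.043 for Atg7 KO over control at day 4, 0.10 for the difference of the knockout effect between days, -0.27 for control day 2 over ESCs and -0.52 for control day 4 over ESCs. The medians of all tested genes there were -0.050, -0.056, 0.060 and 0.10. With at least 10 CPM in 3 libraries required, the members' medians were 0.020, 0.078, -0.26 and -0.50, and 9 members were called with a difference between days below 0. All tested genes then had medians of -0.023, -0.034, 0.00088 and 0.0089. The 5 members higher in control cells at day 4 than in ESCs became 3 with no filter, 3 with the replicate block, 3 in the fit on the groups compared and 3 with 13 libraries, where the median of control day 2 over ESCs was -0.36. In fits on the groups compared, 5 members were called higher in Atg7 KO cells at day 2 and 7 with a difference between days below 0. There, 4 were called higher in control cells at day 2 than in ESCs. Replicate numbers are shared only as numbers: same-numbered libraries correlated between -0.08 and 0.08 in their deviations. Leaving out each library in turn gave, for Atg7 KO at day 2, 1 to 2 members higher, 9 to 15 lower and medians of -0.08 to -0.04. It gave 13 to 21 higher, 5 to 8 lower and 0.059 to 0.12 for Atg7 KO at day 4. For the difference between days it gave 13 to 23 called above 0, 1 to 4 called below 0 and 0.11 to 0.20. Control day 2 over ESCs had 4 to 8 higher, 48 to 56 lower and -0.36 to -0.27, control day 4 over ESCs 3 to 6, 59 to 66 and -0.67 to -0.56, control day 4 over day 2 10 to 14, 35 to 39 and -0.23 to -0.18, and Atg7 KO day 4 over day 2 15 to 19, 23 to 27 and -0.12 to -0.09. The cause of these shifts was not tested. With 3 libraries a group, small knockout effects sit near the threshold, and genes that overlap others share reads with them.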
